A study of Mus musculus with 9 samples.

Results

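Proteasome subunit genes were followed in tumours grown from the mouse melanoma line B16-F10. Members were the genes whose current symbol starts with Psma, Psmb, Psmc, Psmd or Psme and a digit, without the interferon-inducible Psmb8, Psmb9 and Psmb10. The rule named 40 genes, and 39 had a probe well above background in the tumour channel on at least 3 of the 9 arrays, out of 13455 genes with such a probe. The chosen probe of all 39 was above background on all 9 arrays and none was saturated. The gene just outside was Psmb11, the beta subunit of the thymus, whose probes were above background on 2 arrays and 0 arrays. All values are log2 ratios of a tumour pool over cultured cells, and for a gene with several probes the brightest stood for it.

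The 3 tumour groups came from line variants named for HDC, the L-histidine decarboxylase that forms histamine. HDC-S had an enhanced, HDC-A a diminished and HDC-M an unmodified capacity to make it. Each group held 6 tumours, whose RNA was joined in pairs into 3 pools, and each pool was hybridised in Cy5 to its own array. Cy3 held the reference, RNA of HDC-M cells grown in culture, the same on every array. Each group is 1 line variant, so the variant and its histamine capacity cannot be told apart.

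Between 58.0% and 69.7% of an array's probe spots were well above background in Cy5. Over all kept probes r lay between 0.899 and 0.950 for pools of 1 group, and between 0.862 and 0.922 for pools of different groups. Hdc itself averaged 0.46 ± 0.14 in HDC-S, 0.24 ± 0.16 in HDC-A and 0.38 ± 0.28 in HDC-M tumours (SD, n = 3 each), and no group difference in it passed (lowest adjusted p = 0.463, limma). The 7 of 9 melanocyte markers with a kept probe were above background on all 9 arrays. The file headers put pool 3 of every group on a second scan day. These are pieces of bulk tissue, in which fewer cells of a type and less RNA per cell cannot be told apart.

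The proteasome is the machine that degrades proteins marked with ubiquitin. Its barrel-shaped core is built of outer rings of alpha subunits, which gate the entrance, and inner rings of beta subunits, some of which cut peptide bonds. A cap docks on the core: its base holds a ring of ATPases that unfold the substrate, and its lid removes the ubiquitin chain. Other activators, the Psme products, open the core without ubiquitin, and Psme1 and Psme2 are, with the immunoproteasome subunits, induced by interferon gamma and known for their part in antigen presentation.

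The regions around the transcription start are shown for the members on which the results turn. Psme1 and the probes of Psme2b, which also carry accessions of Psme2, lay highest above the cultured cells, Psma5, Psmb4 and Psmd8 differed between HDC-S and HDC-A tumours, and Psmc6 came closest to the threshold among the ATPases. Each sequence runs from 250 bases before the annotated start to 25 bases from it on (RefSeq, GRCm38.p6), 5′ to 3′ on the gene's own strand. Capitals mark matches to the motifs named after the sequences.
Psme1, chr14:55578244-55578518, plus strand: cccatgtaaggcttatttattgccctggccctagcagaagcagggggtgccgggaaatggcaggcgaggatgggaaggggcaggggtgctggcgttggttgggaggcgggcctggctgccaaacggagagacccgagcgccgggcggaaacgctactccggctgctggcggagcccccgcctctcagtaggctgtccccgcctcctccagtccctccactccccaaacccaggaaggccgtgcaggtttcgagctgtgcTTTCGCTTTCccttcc
Psme2, chr14:55591077-55591351, minus strand: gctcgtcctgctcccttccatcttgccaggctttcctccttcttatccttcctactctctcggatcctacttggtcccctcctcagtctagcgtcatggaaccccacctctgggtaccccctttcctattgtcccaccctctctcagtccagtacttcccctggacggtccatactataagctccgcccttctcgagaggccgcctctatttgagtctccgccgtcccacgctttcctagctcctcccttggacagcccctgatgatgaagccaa
Psma5, chr3:108256676-108256950, plus strand: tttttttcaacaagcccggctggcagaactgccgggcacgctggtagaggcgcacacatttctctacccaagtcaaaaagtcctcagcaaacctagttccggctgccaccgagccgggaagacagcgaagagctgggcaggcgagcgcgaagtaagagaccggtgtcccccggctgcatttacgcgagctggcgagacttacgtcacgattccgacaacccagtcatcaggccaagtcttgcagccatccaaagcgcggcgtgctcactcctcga
Psmb4, chr3:94886934-94887208, minus strand: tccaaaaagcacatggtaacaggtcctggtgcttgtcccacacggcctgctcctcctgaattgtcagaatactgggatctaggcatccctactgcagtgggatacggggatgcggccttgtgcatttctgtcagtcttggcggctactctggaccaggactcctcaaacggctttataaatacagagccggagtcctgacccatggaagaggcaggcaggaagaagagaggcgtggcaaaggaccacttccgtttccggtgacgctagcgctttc
Psmd8, chr7:29180649-29180923, minus strand: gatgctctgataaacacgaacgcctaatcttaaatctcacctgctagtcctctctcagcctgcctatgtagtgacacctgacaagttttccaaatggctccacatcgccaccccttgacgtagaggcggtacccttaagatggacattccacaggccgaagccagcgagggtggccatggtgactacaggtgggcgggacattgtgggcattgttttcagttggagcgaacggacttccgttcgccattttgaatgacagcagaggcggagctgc
Psmc6, chr14:45329574-45329848, plus strand: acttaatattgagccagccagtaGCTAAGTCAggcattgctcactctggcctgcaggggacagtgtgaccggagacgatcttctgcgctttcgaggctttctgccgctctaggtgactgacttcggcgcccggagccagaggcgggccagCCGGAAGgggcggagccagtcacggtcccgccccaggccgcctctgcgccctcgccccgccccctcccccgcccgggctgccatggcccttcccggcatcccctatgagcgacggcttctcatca

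RefSeq's table gave a start region for 33 of the 39 members, and none was matched for Psmb1, Psmb2, Psmb7, Psmc3, Psmd3 and Psmd7. The whole window of 300 bases was searched on both strands for 5 motifs, and no 2 matches overlapped in the sequences shown. The core of the interferon-stimulated response element, GAAA and GAAA with 2 bases between, was found in Psme1 just after the start, and in all in 4 of 33 members (Psme1, Psmb3, Psmd4 and Psmd9), against 3.99% of all 27025 genes in the table. It was not in the windows of Psme2 or Psme2b. The ETS site CCGGAAG was found in 14 of 33 members, against 9.93% of all genes: 9 of 13 cap subunits held it, Psmc6 among them, and 1 of 11 core subunits, Psma6. The core of the antioxidant response element, TGACNNNGC, through which Nfe2l1 and Nfe2l2 act, was found in 6 of 33 members against 13.99% of all genes, Psmc6 again among them. The CCAAT box was found in 14 of 33 against 41.1%, and the gamma-activated site TTCNNNGAA in 1 of 33, Psmd2, against 9.55%. Psma5, Psmb4, Psmd8 and Psme2 held none of the 5. A match is a string of letters, and no binding was measured.

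**Figure D1:**
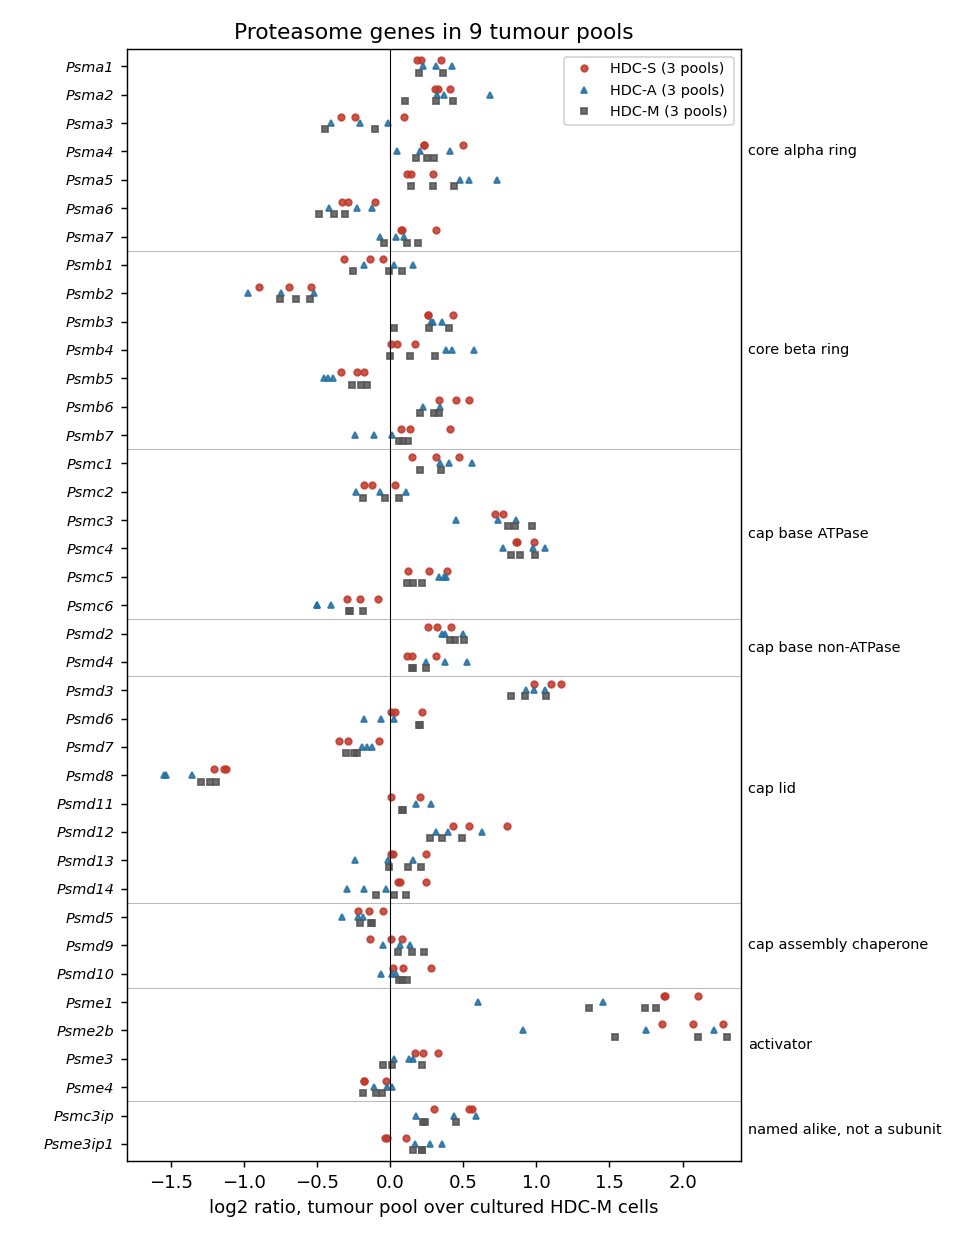
Log2 ratio of tumour pool over cultured HDC-M cells (x axis) for the 39 genes, sorted by role from top to bottom. Each point is 1 pool: circles HDC-S, triangles HDC-A, squares HDC-M. Most genes lie within 0.5 of the reference, Psme1, Psme2b and Psmd3 lie highest and Psmd8 lowest; 8 genes lack 1 to 3 points, where the scanner software marked the spot as an outlier.

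Against the cultured cells, the first comparison, 32 of 39 members passed at an adjusted p under 0.05 (limma, mean of the 3 groups against 0, Benjamini-Hochberg over all kept probes). Of these 23 were higher and 9 lower in the tumours, while 78.8% of all 26867 probes tested passed, 47.3% higher and 31.6% lower, so the members' share is near that of the array. Their median was 0.14, beside 0.06 for all probes, and 7 of 39 lay more than 0.5 from 0. There was no dye swap, so a tumour difference and a dye bias of a probe cannot be told apart, and the spread of the reference itself is not in the test. Within single groups, 29 members passed in HDC-S (64.2% of all probes, 38.2% higher and 26% lower), 28 in HDC-A (65.7%, 38.9% higher and 26.8% lower) and 26 in HDC-M tumours (57.9%, 34% higher and 23.9% lower). Of these members 21 were higher and 8 lower in HDC-S, 20 and 8 in HDC-A and 19 and 7 in HDC-M tumours. The result also rests on how arrays are centred: with the median of each array in place of loess, 34 members passed as higher and 1, Psmd8, as lower, with the median of all probes moved to 0.19 and that of the members to 0.67.

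In the reported fit 12 of 14 core subunits passed against the reference, beside 78.8% of all probes, and 1, Psmb2, lay more than 0.5 from it. All 7 alpha subunits passed, with 5 higher (Psma1, Psma2, Psma4, Psma5 and Psma7, 0.09 to 0.36) and 2 lower (Psma3 at -0.21 and Psma6 at -0.30). Psma6 was -0.29, -0.33 and -0.10 in HDC-S, -0.23, -0.41 and -0.12 in HDC-A and -0.31, -0.38 and -0.48 in HDC-M pools, below the reference on all 9 arrays. Psma7 passed at 0.09 (adjusted p = 0.0405) and lost this without HDC-A pool 1 or 3, HDC-S pool 3 or HDC-M pool 1 or 2 (0.07 to 0.09). Without HDC-M pool 3 Psma3 stood at -0.16 (adjusted p = 0.0824).

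Among the 7 beta subunits 3 were higher (Psmb3, Psmb4 and Psmb6) and 2 lower (Psmb2 and Psmb5), and Psmb1 and Psmb7 did not pass (-0.08 and 0.06). Psmb2, a structural beta subunit, lay furthest from the reference of the core: -0.69, -0.90 and -0.54 in HDC-S, -0.74, -0.97 and -0.52 in HDC-A and -0.55, -0.64 and -0.75 in HDC-M pools. Its mean was -0.70 (SE 0.05, adjusted p = 9.5e-07), and the 3 groups overlapped throughout. With median centring it was -0.19 (adjusted p = 0.0883). Psmb5, the chymotrypsin-like catalytic subunit, stood at -0.29 and Psmb6, the caspase-like one, at 0.34.

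Within the cap the ratios spread further. The ATPases Psmc4 (0.91, SE 0.03) and Psmc3 (0.77, SE 0.05, no usable spot in HDC-S pool 3) were higher in the tumours than in culture, as were Psmc1 and Psmc5, while Psmc6 was lower (-0.30, SE 0.03) and Psmc2 did not pass (-0.07). Psmc6 was -0.29, -0.21 and -0.08 in HDC-S, -0.50, -0.50 and -0.40 in HDC-A and -0.18, -0.27 and -0.28 in HDC-M pools. Both non-ATPase subunits of the base passed as higher, Psmd2, a ubiquitin-shuttle docking scaffold, at 0.40 and Psmd4, a ubiquitin receptor, at 0.25.

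The lid held the extremes of the cap. Psmd3, a scaffold subunit, was 0.98, 1.10 and 1.17 in HDC-S, 0.93, 0.98 and 1.06 in HDC-A and 1.07, 0.92 and 0.83 in HDC-M pools, a mean of 1.01 (SE 0.03, adjusted p = 3.3e-09) or 2.01-fold. Psmd8, the subunit that joins the lid last in yeast, was -1.21, -1.12 and -1.13 in HDC-S, -1.53, -1.55 and -1.35 in HDC-A and -1.19, -1.23 and -1.29 in HDC-M pools. Its mean was -1.29 (SE 0.03, adjusted p = 4.2e-10), or 0.409-fold, and it stayed lower in all 22 alternative fits. So in the reported fit 2 subunits of 1 subcomplex lay far above and far below the reference, each on 1 probe. Over the 22 alternative fits Psmd3 ran from 0.96 to 1.49 and Psmd8 from -1.32 to -0.78. Psmd12 (0.47) and Psmd11 (0.14, 6 usable arrays) were higher, Psmd7 was lower (-0.22), and Psmd6, Psmd13 and Psmd14 did not pass. Psmd11 lost its call without HDC-S pool 2 (0.11, adjusted p = 0.0517).

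Of the chaperones that assemble the base, Psmd5 was lower (-0.18), Psmd10 higher by 0.07 (adjusted p = 0.0482) and Psmd9 did not pass (0.06). Psmd10 kept its call without HDC-A pool 2 or HDC-S pool 2 and lost it without each of the other 7 pools (0.05 to 0.08). All 4 activators passed over the mean of the 3 groups: Psme1 and Psme2b high, Psme3, the nuclear activator, at 0.14 and Psme4 at -0.09. Within single groups all 4 passed in HDC-S, and only 2, Psme1 and Psme2b, in HDC-A and in HDC-M tumours. Psmc3ip, a recombination factor (0.39), and Psme3ip1 (0.16), which carry the prefix but are not subunits, were higher.

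A second probe bears on these ratios for 13 genes. For 5 of them the probes lay on opposite sides of the reference: Psmb3 (0.29 for the brightest and -0.22), Psmc5 (0.26 and -0.11), Psmd7 (-0.22 and 0.38), Psme3ip1 (0.16 and -0.02) and Psme4 (-0.09 and 0.06). Averaging a gene's probes turned Psmd7 to 0.08 and ended the calls of Psmb3 (0.03), Psmc5 (0.08) and Psme4 (-0.02). The other 8 had their probes on 1 side, at unlike sizes in some. Psmd12 was 0.47 for the brightest, 0.17 for another and 0.04 for the last, which did not pass (adjusted p = 0.225), and 0.22 over the mean of its probes. Psmd14 was -0.01 for the brightest and -0.31 for its other probe, which passed as lower (adjusted p = 0.00012), and Psmd9 was 0.06 and 0.12, the second of which passed (adjusted p = 0.0017). Closer were Psmc4 (0.91 and 0.95), Psmd2 (0.40 and 0.60), Psma4 (0.26 and 0.39), Psmc3ip (0.39 and 0.44) and Psme2b (1.89 and 1.73). Most genes, 26 of 39, rested on a single probe, Psme1, Psmd3, Psmd8 and Psmb2 among them.

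Psme1 and Psme2b stood apart from the rest. Psme1 was 1.87, 1.88 and 2.11 in HDC-S, 0.60 and 1.45 in HDC-A (the spot of pool 3 was an outlier) and 1.82, 1.75 and 1.36 in HDC-M pools. Psme2b was 1.86, 2.07 and 2.28 in HDC-S, 0.91, 1.75 and 2.22 in HDC-A and 2.30, 2.11 and 1.54 in HDC-M pools. The means of the 3 groups exceeded the reference for both (limma). Psme1 did by 1.54 (SE 0.09, adjusted p = 6.3e-07) and Psme2b by 1.89 (SE 0.13, 3.71-fold, adjusted p = 4.4e-07). Over its 8 usable arrays Psme1 averaged 1.605, or 3.04-fold. The Psme2b probes also carry accessions of Psme2, and these 2 genes cannot be told apart here.

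The same pools were low in both: HDC-A pool 1 was the lowest of all and HDC-M pool 3 the lowest of its group. The immunoproteasome genes, which share the interferon gamma response, were also far above the culture, by 4.62 for Psmb8, 4.54 for Psmb9 and 2.38 for Psmb10. Their mean per pool was 4.05, 4.19 and 3.87 in HDC-S (the last without Psmb8, whose spot was an outlier), 2.41, 3.97 and 4.38 in HDC-A and 4.32, 4.03 and 2.99 in HDC-M. The mean of 10 interferon response markers, all above background on all 9 arrays, was 1.60, 1.65 and 1.76 in HDC-S, 0.36, 1.52 and 1.80 in HDC-A and 1.34, 1.64 and 0.77 in HDC-M pools. HDC-A pool 1 and HDC-M pool 3 were the 2 lowest of the 9 in both. The part of interferon signalling, or of cells that carry these genes, in the Psme1 and Psme2b ratios was not tested.

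**Figure D2:**
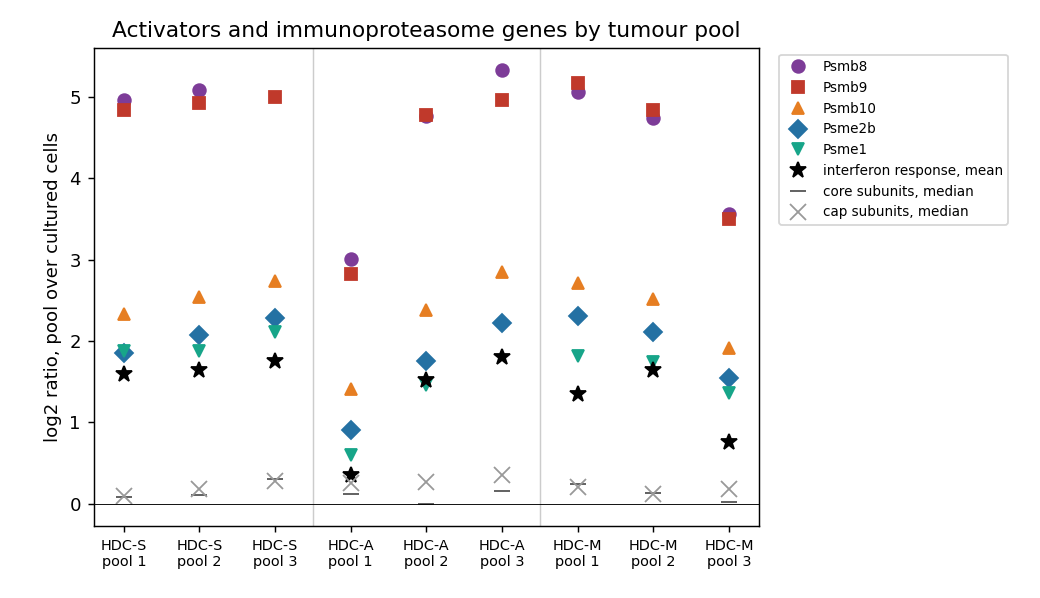
Log2 ratio over cultured cells (y axis) in each of the 9 pools for Psme1, Psme2b and the immunoproteasome genes, with the mean of 10 interferon response markers and the medians of 14 core and 16 cap subunits. HDC-A pool 1 and HDC-M pool 3 lie low for the activators and immunoproteasome genes, and the core and cap medians stay between -0.01 and 0.35 in all pools; Psme1 has no point in HDC-A pool 3 and Psmb8 none in HDC-S pool 3.

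The next question was whether the genes differed with the tumours' histamine capacity. HDC-S and HDC-M tumours did not differ in any member at the threshold: 0 of 39 passed (limma, lowest adjusted p = 0.255), against 0.681% of all probes, and 1 member had an unadjusted p under 0.05 against 14.5% of all probes. The differences ran from -0.18 to 0.31 with a median of 0.04, beside 0.01 for all probes, and 25 were positive. Outside Psme1 and Psme2b the 95% intervals reached from -0.40 to 0.49, so changes beyond 1.40-fold lie outside the interval of every other member. The median turned to -0.03 without HDC-S pool 3, was -0.07 on the first scan day, and with median centring all 39 differences were negative, with a median of -0.41 beside -0.12 for all probes.

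The members nearest to a difference in each role were small steps. Among the core subunits these were Psma6 (0.15, SE 0.09) and Psmb6, which was 0.34, 0.45 and 0.54 in HDC-S, 0.23 and 0.34 in HDC-A (pool 3 without a usable spot) and 0.33, 0.30 and 0.20 in HDC-M pools. Psmb6 in HDC-S lay just above HDC-M by 0.16 (SE 0.07, adjusted p = 0.36). Among cap subunits Psmc5 was 0.12, 0.26 and 0.39 in HDC-S, 0.34, 0.38 and 0.37 in HDC-A and 0.16, 0.11 and 0.22 in HDC-M pools, with overlapping HDC-S and HDC-M pools. Psmd2 was 0.26, 0.32 and 0.42 in HDC-S, 0.38, 0.50 and 0.35 in HDC-A and 0.51, 0.44 and 0.41 in HDC-M pools, a difference of -0.12 between HDC-S and HDC-M (SE 0.07).

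In the lid it was Psmd12, a scaffold subunit: 0.43, 0.54 and 0.80 in HDC-S, 0.39, 0.31 and 0.63 in HDC-A and 0.49, 0.35 and 0.27 in HDC-M pools. Its groups overlapped, and HDC-S exceeded HDC-M by 0.22 (SE 0.11, adjusted p = 0.431). The chaperone Psmd9 was 0.08, -0.14 and 0.01 in HDC-S, 0.07, -0.05 and 0.14 in HDC-A and 0.23, 0.15 and 0.05 in HDC-M pools, overlapping as well. Psme3 was 0.22, 0.33 and 0.17 in HDC-S, 0.03, 0.13 and 0.16 in HDC-A and -0.05, 0.01 and 0.22 in HDC-M pools, and HDC-M pool 3 lay within the HDC-S range. Psme3ip1, whose product binds Psme3, had the lowest p of the members: 0.11, -0.03 and -0.02 in HDC-S, 0.27, 0.17 and 0.35 in HDC-A and 0.22, 0.22 and 0.16 in HDC-M pools. Here all HDC-S pools lay below all others, with a difference of -0.18 from HDC-M (SE 0.07, adjusted p = 0.255).

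HDC-A and HDC-M tumours did not differ in any member at the threshold either. Of 39 members 0 passed (limma, lowest adjusted p = 0.112), against 1.44% of all probes, and 9 had an unadjusted p under 0.05 against 15.5% of all probes. The median difference was 0.03, beside 0.01 for all probes, with 21 positive, and it was -0.02 without HDC-A pool 3, -0.04 without HDC-M pool 3, -0.04 with scaling between arrays, -0.09 on the first scan day and -0.45 with median centring, where all 39 were negative and all probes stood at -0.11. Psmb5 had the lowest p, with -0.22, -0.33 and -0.18 in HDC-S, -0.39, -0.45 and -0.42 in HDC-A and -0.16, -0.20 and -0.26 in HDC-M pools. The HDC-A pools were the 3 lowest, and the difference of HDC-A from HDC-M was -0.22 (SE 0.06, adjusted p = 0.112).

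For Psma5 and Psmb4 the difference was 0.29 and 0.31, and for Psmd8, Psmc6 and Psmd6 it was -0.24, -0.22 and -0.27 (adjusted p from 0.117 to 0.184, so none passed). Psmd4 was 0.12, 0.15 and 0.32 in HDC-S, 0.38, 0.24 and 0.52 in HDC-A and 0.25, 0.15 and 0.16 in HDC-M pools, and HDC-A and HDC-M overlapped narrowly. The chaperone Psmd5 was -0.15, -0.22 and -0.05 in HDC-S, -0.18, -0.33 and -0.22 in HDC-A and -0.12, -0.20 and -0.13 in HDC-M pools, again overlapping. The difference for Psme1 was -0.61 (SE 0.23, adjusted p = 0.256) over 2 HDC-A pools. Without HDC-A pool 1, which left 1 HDC-A pool, it was -0.19.

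HDC-S and HDC-A tumours, the ends of the histamine range, differed in 3 of 39 members: the core subunits Psma5 and Psmb4 were lower and the lid subunit Psmd8 was higher in HDC-S. Across the array 5.26% of probes passed, 2.84% higher and 2.42% lower, and 9 members had an unadjusted p under 0.05 against 19.4% of all probes. The median difference was 0.05, beside 0.00 for all probes, and it was -0.04 without HDC-A pool 2, 0.12 without HDC-A pool 3 and -0.05 without HDC-S pool 3. An F-test over the 3 groups called 1 member, Psmd8 (adjusted p = 0.0498), against 4.65% of all probes. These comparisons share arrays: HDC-A pools enter this one and the one with HDC-M.

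Psma5, an alpha subunit of the core, was 0.12, 0.14 and 0.30 in HDC-S, 0.48, 0.54 and 0.73 in HDC-A and 0.44, 0.29 and 0.15 in HDC-M pools. All HDC-S pools lay below all HDC-A pools, and the HDC-M pools ran from within the HDC-S range up to just below HDC-A. The difference was -0.40 (SE 0.10, 95% interval -0.61 to -0.18, adjusted p = 0.0453). Psmb4, a structural beta subunit, was 0.00, 0.05 and 0.17 in HDC-S, 0.42, 0.38 and 0.58 in HDC-A and 0.31, 0.14 and 0.00 in HDC-M pools. It showed the same order, with a difference of -0.39 (SE 0.09, interval -0.59 to -0.19, adjusted p = 0.0401).

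Psmd8, given above for each pool, lay higher in all HDC-S than in all HDC-A pools, by 0.32 (SE 0.07, interval 0.17 to 0.47, adjusted p = 0.0279), while being below the cultured cells in every pool. All 3 differences kept their direction in 23 alternative fits and are near the threshold: Psmd8 passed in 12 of them, Psmb4 in 10 and Psma5 in 8. Of the pools of these 2 groups that share a replicate number, those of number 2 deviated together most (r = 0.548). With the replicate number as a block 0 of the 39 members passed. The adjusted p (limma) was then 0.0548 for Psmd8, 0.0738 for Psmb4 and 0.0816 for Psma5, at the same differences. No member with 2 or more usable pools in each group passed without HDC-A pool 1, HDC-A pool 2 or any 1 of the HDC-S pools. Psme1, left with 1 HDC-A pool in 2 of these fits, is not counted there. In the other fits 1 passed without HDC-A pool 3 (Psmd8) or HDC-M pool 2, and 3 without HDC-M pool 1 or 3. With the scan day as a block Psmd8 passed (adjusted p = 0.0402) and Psmb4 (0.0593) and Psma5 (0.0629) did not; within the first scan day the differences were 0.37, -0.38 and -0.38 (adjusted p = 0.115, 0.136 and 0.127).

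**Figure D3:**
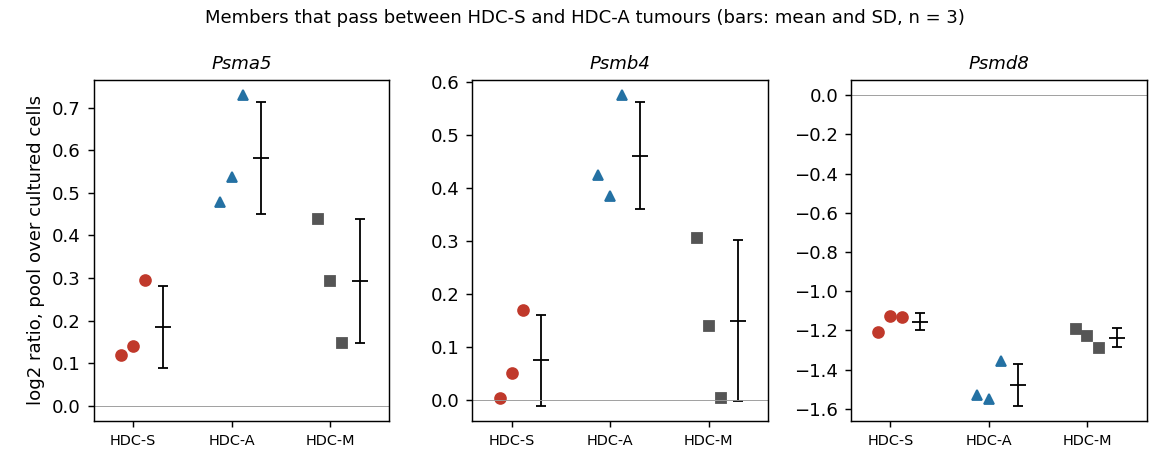
Log2 ratio over cultured cells (y axis, a separate range per panel) of Psma5, Psmb4 and Psmd8 in the 3 pools of each group, with the mean and SD beside them (n = 3). HDC-S and HDC-A pools do not overlap in any panel, and Psmd8 lies between -1.55 and -1.12 throughout.

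Other members leaned without passing. For Psmc6 HDC-S exceeded HDC-A by 0.27 (SE 0.07, adjusted p = 0.0543), a call that 3 of 23 alternative fits made. A further probe, which the files describe as ATPase 6 of the cap without a symbol, gave 0.17 (SE 0.06, adjusted p = 0.119). Psmb7, the trypsin-like catalytic subunit, was 0.07, 0.14 and 0.41 in HDC-S, -0.11, -0.24 and 0.01 in HDC-A and 0.12, 0.09 and 0.06 in HDC-M pools. Its HDC-S pools lay above its HDC-A pools, by 0.32 (SE 0.10, adjusted p = 0.0973). Psmd14, the deubiquitinase of the lid, leaned the same way on both of its probes, by 0.29 (SE 0.09, adjusted p = 0.104) and 0.32.

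For Psme1 the difference of HDC-S from HDC-A was 0.92 (SE 0.23, adjusted p = 0.0622), the widest difference of the group comparisons. It rests on HDC-A pools 1 and 2, as the spot of pool 3 was an outlier. Leaving out either of them left 1 HDC-A pool. The difference was then 0.50 without HDC-A pool 1 and 1.35 without HDC-A pool 2. With outlier spots kept it was 0.63 (limma, adjusted p = 0.244). Psme2b, measured in all 3 HDC-A pools, differed by 0.44 (SE 0.31, adjusted p = 0.504), and by 0.09 without HDC-A pool 1. The interferon response mean lay at 1.60 to 1.76 in HDC-S, 0.36 to 1.80 in HDC-A and 0.77 to 1.64 in HDC-M pools. Between HDC-S and HDC-A 0 of its 10 genes passed (limma, 1 at an unadjusted p under 0.05), against 5.26% and 19.4% of all probes. All 10 differences were positive, from 0.08 to 1.06 with a median of 0.38. Those of the 3 immunoproteasome genes were positive too, with a median of 0.66, and 0 passed. The part of interferon signalling in the Psme1 and Psme2b differences was not tested. Psmd10, the oncoprotein gankyrin, was 0.09, 0.02 and 0.28 in HDC-S, 0.04, -0.06 and 0.02 in HDC-A and 0.12, 0.08 and 0.06 in HDC-M pools, with overlapping HDC-S and HDC-A pools.

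Some markers of the tumour cells and of host tissue also varied between these groups. Of 7 melanocyte markers 2 were lower in HDC-S than in HDC-A pools, Tyr by a log2 difference of -0.48 (adjusted p = 0.0121) and Oca2 by -0.62 (adjusted p = 0.0171), while 4 of the 7 had positive differences (up to 0.20, none past the threshold) and their median difference was 0.00. The mean of the 7 was 0.22 to 0.48 in HDC-S, 0.42 to 0.50 in HDC-A and 0.56 to 0.89 in HDC-M pools. The mean of 7 skeletal muscle markers was 0.76 to 2.62 in HDC-S, 1.87 to 3.59 in HDC-A and 1.31 to 1.94 in HDC-M pools. The mean of the 5 of 7 keratinocyte markers with a kept probe was -0.02 to 1.45 in HDC-S, 1.45 to 2.65 in HDC-A and 2.14 to 3.29 in HDC-M pools. Of the muscle and keratinocyte markers 0 passed between HDC-S and HDC-A (limma, 3 of 7 and 3 of 5 at an unadjusted p under 0.05). Of all probes 5.26% passed in this comparison and 19.4% had an unadjusted p under 0.05. Of 8 macrophage, 6 T and NK cell and 6 endothelial markers 0 had an unadjusted p under 0.05. The part of any of these lists in the Psma5, Psmb4 and Psmd8 differences was not tested.

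**Figure D4:**
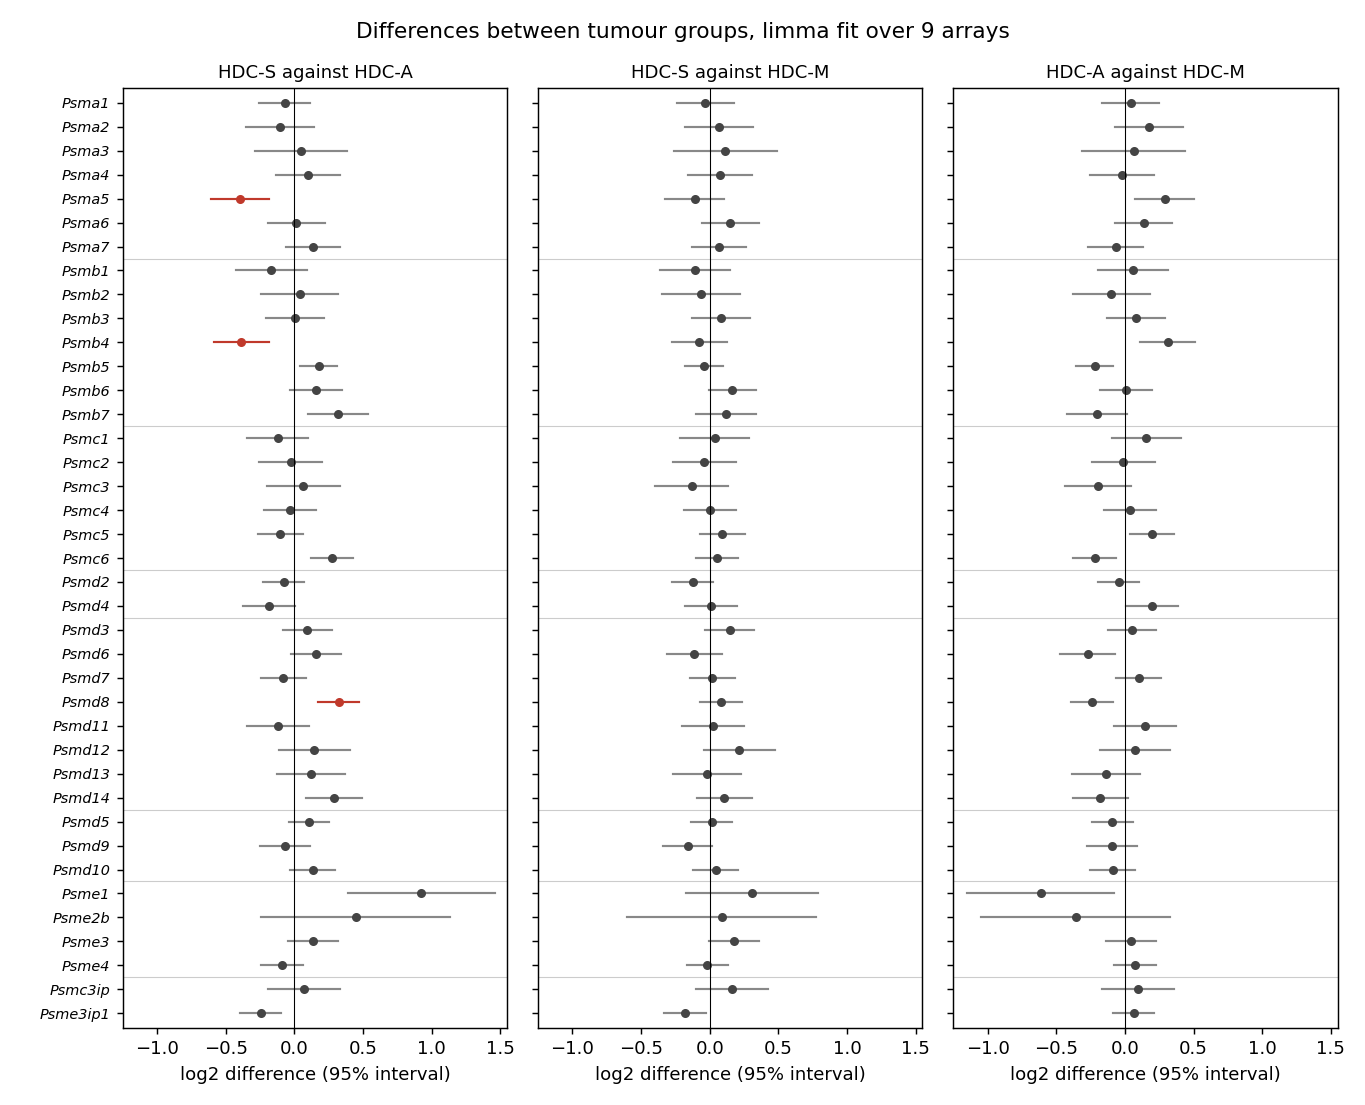
Log2 difference with its 95% interval (x axis, limma over all 9 arrays) for the 39 genes, sorted by role, in HDC-S against HDC-A (left), HDC-S against HDC-M (middle) and HDC-A against HDC-M (right). Red marks the 3 genes that pass, Psma5, Psmb4 and Psmd8, all in the left panel; the intervals of Psme1 and Psme2b are the widest.

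By subcomplex the differences were small. The median of 14 core subunits was 0.16 ± 0.12 in HDC-S, 0.09 ± 0.09 in HDC-A and 0.13 ± 0.11 in HDC-M pools (SD, n = 3 each), so the groups differed by less than the spread between pools. The median of 16 cap subunits was 0.18 ± 0.09 in HDC-S, 0.29 ± 0.05 in HDC-A and 0.17 ± 0.04 in HDC-M pools. That median does not stand for a shift of the cap's members: of their 16 differences between HDC-A and HDC-M 8 were positive and 8 negative, with a median of 0.01. The lid taken by itself had a lower median in HDC-A pools (-0.18 to 0.01) than in HDC-M pools (0.04 to 0.15). The ATPases had a higher one (0.36 to 0.47 in HDC-A, 0.11 to 0.25 in HDC-M). The same limit holds for both. Of the lid's differences 4 were positive and 4 negative, with a median of -0.04, and of the ATPases' 3 and 3, with a median of 0.01. Within the beta ring single members pointed both ways between HDC-S and HDC-A, with -0.39 for Psmb4, which passed, beside 0.32 for Psmb7 and 0.18 for Psmb5, which did not.

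The genes around the proteasome, which are no members, were read from a list of 37, of which 34 had a kept probe: assembly factors, ubiquitin and its shuttles, the unfoldase Vcp and its cofactors, deubiquitinases, transcription factors and the immunoproteasome. Between HDC-S and HDC-M 0 of 34 passed (limma, 5 at an unadjusted p under 0.05), between HDC-A and HDC-M 1 was higher, and between HDC-S and HDC-A 2 were lower, shares near the 0.681%, 1.44% and 5.26% of all probes. The gene higher in HDC-A was Nfe2l1, a transcription factor that raises subunit genes when the proteasome is impaired. Nfe2l1 was -0.63 and -0.74 in HDC-A (pool 1 without a usable spot) against -1.04, -1.19 and -1.17 in HDC-M pools, a difference of 0.45 (SE 0.08, adjusted p = 0.0454). It lost the call in each of the 9 fits without 1 array, where HDC-A exceeded HDC-M by 0.40 to 0.50, and stood at -0.09 with median centring.

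The 2 genes lower in HDC-S than in HDC-A were Ubqln1, a shuttle that carries ubiquitinated proteins to the cap, and Faf2, a cofactor of Vcp at the endoplasmic reticulum. Ubqln1 was -0.65, -0.75 and -0.58 in HDC-S against -0.35, -0.43 and -0.21 in HDC-A pools, a difference of -0.33 (SE 0.07, adjusted p = 0.0299). Faf2 was -0.81, -0.86 and -0.81 in HDC-S against -0.47, -0.59 and -0.63 in HDC-A pools, a difference of -0.26 (SE 0.06, adjusted p = 0.0408). With the replicate block Ubqln1 passed (adjusted p = 0.0384) and Faf2 did not (adjusted p = 0.078). The groups did not overlap in either gene. Without 1 array Ubqln1 passed in 2 of 9 fits (without HDC-A pool 2 or HDC-M pool 3) and Faf2 in 1 of 9 (without HDC-M pool 3).

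Against the cultured cells 28 of these 34 genes passed, 12 higher and 16 lower. Of all probes 78.8% passed, 47.3% higher and 31.6% lower, so the share that passed is near that of the array. All 3 measured genes of the transcription list were lower, Nfe2l1 at -0.91, Nfe2l2 at -0.99 and Ngly1, which processes Nfe2l1, at -0.46. Of the core assembly factors Pomp was higher (0.52) and Psmg1 (-0.60), Psmg2 (-0.68) and Akirin2 (-0.97), which carries proteasomes into the nucleus, were lower. Of 3 genes with other names listed with the cap, the ubiquitin receptor Adrm1 was higher (0.18), and Sem1 (-0.33) and Ecpas (-0.52) were lower.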

How the data were processed

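Each pool's RNA was amplified and hybridised with the reference, per the labels. The deposited scanner files hold intensity values per spot, from Agilent's Feature Extraction software, version 8.5.1.1 per the file headers. The authors' value table holds log10 ratios of Cy5 over Cy3 that equal the deposited log10 ratio column (largest difference 0). Other deposited columns mark spots above background, saturated or outlying.

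Mean signals were corrected with limma 3.58.1 in R 4.3.3 (normexp, offset 50) and normalised by loess. Control and outlier spots had weight 0, outlier spots were then left out, and spots of a probe were averaged. Probes above background in Cy5 on 3 or more arrays were kept, 26871 of 41174. Probes were named by accession through RefSeq (22072), by description (690 directly, 521 by synonym and 889 as given), and 17002 had no symbol. All 9 arrays entered 1 limma fit without a block, with Benjamini-Hochberg adjustment over all kept probes and a threshold of 0.05, and the script was tested on simulated data. Each group had only 3 arrays, and what limits the precision was not compared.

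Members and lists were chosen with earlier results of these data known. Values are given per pool for members that pass between groups, for the member with the largest t in each role and comparison, and for the 3 highest and 3 lowest against the reference; Psmb7 was added after its values were seen. Between HDC-S and HDC-A pools the deviations of same-numbered pools from their group means correlated over all kept probes with r of 0.107, 0.548 and 0.131. Pools of unlike number reached 0.220 (HDC-A pool 1 with HDC-S pool 3) and 0.198 (HDC-A pool 3 with HDC-S pool 1). The other unlike pairs lay between -0.32 and -0.26. Only number 2 stood out, so whether the numbers pair these pools is not settled. Number 3 is also the second scan day. For HDC-M pools the same-numbered r with the other groups ran from -0.19 to 0.15. The replicate block, fitted over all 9 arrays, is an alternative. The others are given in the closing section. No genome build of the probes is given in the sources used here.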

Additional observations from a re-analysis of the deposited data

How the results depend on the processing

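The analysis was repeated under 23 alternatives, 9 of which left out 1 array. No member passed in any of them between HDC-S and HDC-M or between HDC-A and HDC-M. Their medians moved to -0.41 and -0.45 with median centring of each array and to -0.066 and -0.093 on the first scan day, and the second to -0.039 with scaling between arrays. Without 1 array they ranged from -0.03 to 0.08 for HDC-S against HDC-M, from -0.043 to 0.066 for HDC-A against HDC-M and from -0.049 to 0.12 for HDC-S against HDC-A. Between HDC-S and HDC-A 3 members passed in the reported fit, 0 with median centring, scaling, the authors' value table, the replicate block and the first scan day alone, 1 with the scan day block and with the 2 groups alone, 5 with array weights and 0 to 3 without 1 array. The F-test called 1 in the reported fit, 3 without background correction, 2 with plain subtraction, 4 with array weights, 0 with median centring, scaling, the authors' value table, the replicate block, the scan day block and the first scan day alone, and 0 to 1 without 1 array. Against the cultured cells 30 to 33 members passed without 1 array, and the median moved to 0.67 with median centring, where Psma3 (0.33), Psma6 (0.21), Psmb5 (0.22), Psmc6 (0.19), Psmd5 (0.33), Psmd7 (0.29) and Psme4 (0.39) turned from lower to higher; Psmd7 also did with the mean of a gene's probes (0.082). Nfe2l1 in HDC-A against HDC-M turned to -0.094 with median centring. Besides the 3 members' calls and that of Faf2 between HDC-S and HDC-A, the replicate block ended the F-test's call of Psmd8, and the calls of Nfe2l1 between HDC-A and HDC-M (adjusted p = 0.0584) and of Psma7 (0.0571) and Psmd10 (0.0527) against the cultured cells, and changed no other call of a member. The cause of these moves was not tested. The 39 chosen probes were above background on all 9 arrays, and what limits their precision was not compared.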

Other observations

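Further proteasome probes carry a description but no symbol and stand outside the members. The probe described as non-ATPase subunit 1, the large scaffold of the cap base, was above the cultured cells by 0.84 (SE 0.04) and averaged 0.74 ± 0.12 in HDC-S, 0.89 ± 0.17 in HDC-A and 0.90 ± 0.14 in HDC-M pools (SD, n = 3 each). The probe described as activator subunit 4 was below them by a log2 ratio of -0.56 (SE 0.03), with -0.62 ± 0.09 in HDC-S, -0.47 ± 0.05 in HDC-A and -0.61 ± 0.04 in HDC-M pools, while the named Psme4 probes gave -0.09 and 0.06. No group difference of these 2 probes passed.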
